A study of Mus musculus with 9 samples.

Results

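In mouse Neuro-2A (N2A) neuroblastoma cells, RNA recovered with antibody to phosphorylated UPF1 (p-UPF1) was compared, gene by gene, with RNA recovered with control rabbit IgG (rIgG). The members are the 12033 gene symbols, of 54325 in the deposited table, whose counts summed over the 3 p-UPF1 IP and 3 rIgG IP libraries reached 10. In these 6 libraries 19811 symbols had any count. Both groups came from the same line, and every culture had received 200 nM of the phosphatase inhibitor okadaic acid for 2 h, so that no library represents untreated cells. The recovered RNA was cut with RNase I, and short fragments of it were sequenced (RIP-seq). A further 3 libraries held input RNA without IP and served here only for values set beside the others. The paper describes its blots of the p-UPF1 and rIgG IPs as representing 3 independent experiments. Neither it nor the labels say whether the 3 libraries of a group came from separate cultures. The p-values then measure only the spread between these libraries, which may be technical.

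UPF1 is an RNA helicase that binds most cellular RNAs. In nonsense-mediated mRNA decay (NMD), a translation termination event that the cell reads as premature leads the kinase SMG1 to phosphorylate UPF1, and the phosphorylated form recruits factors such as SMG5 and SMG6, which start the destruction of the mRNA. Okadaic acid slows the removal of the phosphates. An IP with rIgG recovers RNA that adheres to beads or immunoglobulin without recognition of p-UPF1, and the comparison therefore asks which RNAs were recovered with the antibody beyond that background.

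The control libraries were shallow. They held 474491, 205177 and 79010 counts in rIgG IP replicates 1, 2 and 3, whereas the totals of the p-UPF1 IP were 5312526, 6032142 and 6246110. Pooled over a group, 3 counts were worth 4.14 CPM (counts scaled to library size by TMM factors, here and throughout) in the rIgG IP and 0.186 CPM in the p-UPF1 IP. Reads amplified from the same fragment are not separate molecules, so these floors and all counting intervals describe counting error alone. Of the 12033 genes, 9618 reached the minimum through their p-UPF1 IP counts alone and 65 through their rIgG IP counts alone. Only 2306 genes had 10 or more counts over the 3 rIgG IP libraries, 4214 had 1 to 3 and 2324 had none. A gene without rIgG IP counts is therefore given as a lower bound against 3 counts over the group, and a gene with 1 to 3 as a ratio with its exact binomial counting interval. No pair of replicate libraries was alike within sampling noise: the chi-square statistic divided by its degrees of freedom was 3.62 to 5.07 between rIgG IP libraries, and all were kept as separate samples.

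By edgeR's quasi-likelihood test, with calls made past a log2 fold change of 1 in either direction and under an adjusted p of 0.05 (Benjamini-Hochberg over all 12033 genes), 2102 genes (17.5%) were higher and 643 (5.34%) lower in the p-UPF1 IP. The median log2 fold change of all tested genes was 0.89, and it was 0.18 with genes at 0 set at their bound. Calls of higher genes were more frequent among abundant genes. None of the 1621 genes with a mean level of at most 1 on the log2 CPM scale was called higher, whereas 60.4% of the 1084 genes between 5 and 7 were. The share called lower was 4.33% to 5.73% in the 4 ranges up to a level of 7 and 18.8% of the 202 genes above it. Of the 2102 higher genes, 388 had no rIgG IP count, 675 had 1 to 3 and 465 had 10 or more, and of the 643 lower genes 502 had 10 or more.

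The balance between both directions differed between settings. When the p-UPF1 IP libraries were thinned at random to the totals of the rIgG IP libraries, 5519 genes could be tested, 589 (10.7%) were higher and 536 (9.71%) lower, and the median log2 fold change was 0.20. Of the 2102 higher genes, 1703 could be tested at equal depth and 584 of them were still higher. Of the 643 lower genes, 531 could be tested and 443 were still lower. Higher genes made up 76.6% of the calls with all counts, 64.6% with RLE factors, 56.2% with DESeq2 and 52.4% after thinning. The median log2 fold change over all genes was 0.62 with RLE factors and 0.25 with DESeq2, beside 0.89 under TMM. The median under TMM is not a single reference, since it was 0.18 with genes at 0 set at their bound. It also differed by level on the log2 CPM scale. It was 3.90 (at most 1), 0.51 (1 to 3), 0.97 (3 to 5), 1.38 (5 to 7) and 1.46 (above 7). With genes at 0 set at their bound, the first of these values were -2.06 (at most 1) and -0.18 (1 to 3). Leaving out rIgG IP replicate 1, the deepest control, reduced the calls to 1299 higher and 307 lower and moved the median to 1.60. Without rIgG IP replicate 2, 1396 genes were higher and 566 lower.

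**Figure D1:**
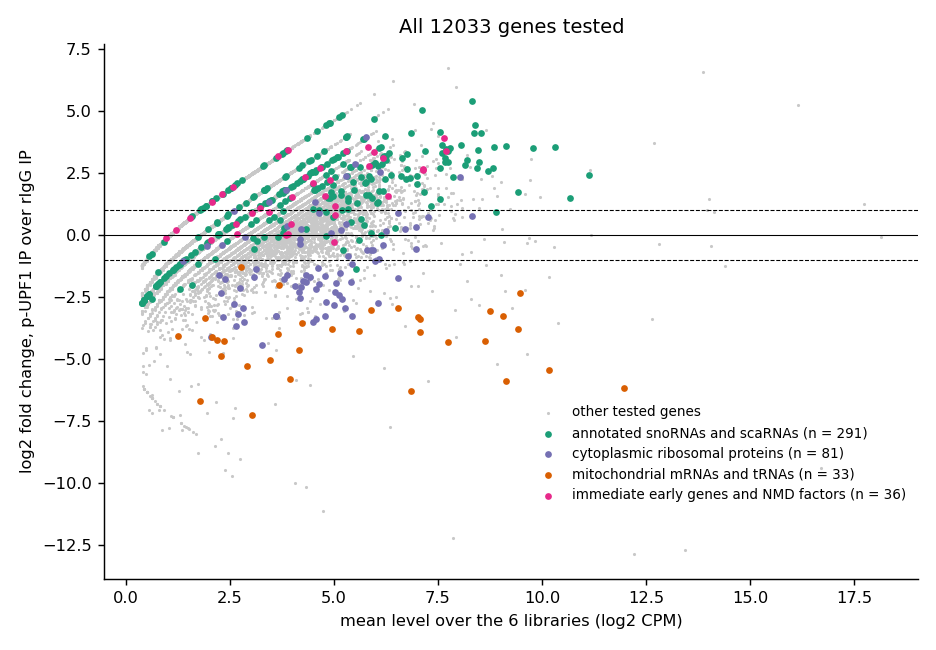
Each point is 1 of the 12033 genes tested, with its mean level over the 6 libraries (log2 CPM) on the horizontal axis and its log2 fold change of p-UPF1 IP over rIgG IP on the vertical axis. Dashed lines mark log2 fold changes of 1 and -1, genes without counts in a group are drawn at their bound against 3 counts, and the diagonal stripes at the left are genes with the same small number of rIgG IP counts. Annotated snoRNAs and scaRNAs (green) lie mostly above the upper line, and the 33 mitochondrial mRNAs and tRNAs (orange) all lie below 0.

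A few features held most counts, and these are shares of counts and not levels per length. Each library's own 10 most-counted genes took 79.2% to 81.9% of its counts in the rIgG IP and 77.9% to 79.9% in the p-UPF1 IP. The 9 nuclear genes among the 10 most counted over all 6 libraries, a sum that the deeper p-UPF1 IP dominates, took 52.8% to 54.3% and 76.0% to 78.2%. Lars2, annotated as the mitochondrial leucyl-tRNA synthetase gene, took 13.5 ± 1.75% (SD, n = 3) in the rIgG IP and 28.0 ± 1.10% in the p-UPF1 IP. Which RNA the fragments counted on it came from was not tested. The log2 fold change of Lars2 was 1.24 ± 0.35 (± standard error, here and below) with an adjusted p of 0.0117. The call was lost in 8 of 17 alternatives, thinning among them. The unclassified feature AA474408 (chr7:110057987-110061325, minus strand, GRCm38, as are all coordinates here) rose from 1562, 688 and 485 counts to 724156, 730048 and 810315, with a log2 fold change of 5.24 ± 0.36 and an adjusted p of 4.06e-11. It made up 0.426 ± 0.163% of the rIgG IP counts and 12.9 ± 0.767% of the p-UPF1 IP counts.

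**Figure D2:**
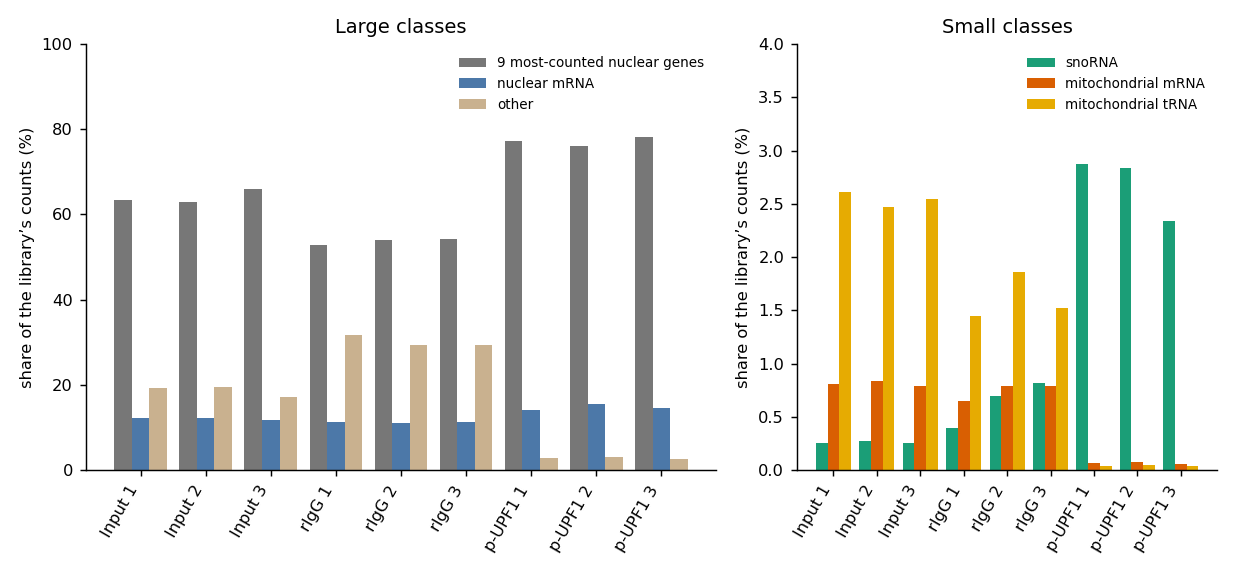
Shares of each library's counts (%) in classes of genes, for the 3 input, 3 rIgG IP and 3 p-UPF1 IP libraries, with the large classes in the left panel (the 9 most-counted nuclear genes, over the 6 IP libraries together, stand apart from the other classes) and small classes in the right panel. The snoRNA share was 2.34% to 2.87% in the p-UPF1 IP, above every rIgG IP library, and the mitochondrial tRNA and mRNA shares were below every rIgG IP and input library.

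The feature with the largest log2 fold change among higher genes with at least 10 rIgG IP counts was Gm25732, annotated as a miRNA and known only by its gene model name. The rIgG IP libraries held 108, 58 and 48 of its counts and the p-UPF1 IP libraries 163648, 157820 and 144094. Its log2 fold change was 6.57 ± 0.36, with an adjusted p of 6.52e-13, and it was 5.92 at equal depth. Gm24245, a neighbouring gene model of the same type, went from 214, 215 and 146 counts to 62955, 67882 and 61132 and had a log2 fold change of 3.73 ± 0.31. Both lie on the plus strand within 200 bases of each other. Their type is that of the annotation alone, and which RNA the fragments counted on them came from was not tested. Their GENCODE sequences are shown because short fragments were counted on them in bulk, and they share no 31-base word. Gm49347, a gene model of that type which shares sequence with Snora74a and its host Snhg4, had 9, 10 and 4 counts against 3304, 3686 and 2725 (4.25 ± 0.31).
Gm25732, chr4:139338206-139338265, plus strand: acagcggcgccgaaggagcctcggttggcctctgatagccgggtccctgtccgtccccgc
Gm24245, chr4:139338304-139338360, plus strand: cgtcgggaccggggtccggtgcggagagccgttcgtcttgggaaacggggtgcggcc

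Small nucleolar RNAs (snoRNAs) guide the chemical modification of ribosomal and spliceosomal RNA, box C/D members directing methylation and box H/ACA members pseudouridylation, and scaRNAs do the same in Cajal bodies. Most of them are cut from introns of host genes. In the p-UPF1 IP, 157 of 275 tested genes annotated as snoRNAs were higher and 1 lower, against 17.5% and 5.34% of all genes, with a median log2 fold change of 2.76. The median level of these snoRNAs was 12.8 CPM, and of all genes between 3 and 5 on the log2 CPM scale 27.1% were higher. At equal depth 98 of 177 snoRNAs were higher. They held 0.396% to 0.823% of the counts in the rIgG IP libraries and 2.34% to 2.87% with the p-UPF1 antibody. In input their share was 0.254% to 0.272%.

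Of the 10 genes with the smallest p among those higher, 5 were snoRNAs. Gm24494, inside the Rabggtb gene, had 13, 7 and 3 counts in the rIgG IP and 2684, 3185 and 2878 in the p-UPF1 IP, a log2 fold change of 4.11 ± 0.28. Gm22980 had 6, 8 and 2 counts against 2607, 2526 and 2665, a log2 fold change of 4.46 ± 0.32. For both, the groups were far apart with no overlap, and the adjusted p was 3.30e-11 and 1.03e-10. Groups without overlap were found for 6214 (51.6%) of all genes tested and for 2089 of the 2102 higher genes. Gm22193, inside Sf3b3, had 3, 4 and 1 counts against 2671, 2408 and 2468 and a log2 fold change of 5.42 ± 0.37. All of its 31-base words occur in Sf3b3, and merged with Sf3b3 and Snord111 it had a log2 fold change of 3.07. The other two of the 5, Gm23212 and Gm22489, lie inside Gas5. Gm23212 had 121 ± 45.6 CPM in the rIgG IP and 1415 ± 180 CPM in the p-UPF1 IP, and Gm22489 had 187 ± 50.7 CPM in the rIgG IP and 2099 ± 317 CPM in the p-UPF1 IP (CPM are given as mean ± SD over 3 libraries, here and below). With larger p, Gm22571, inside Rpl4, had 9, 9 and 2 counts against 2672, 2520 and 2419 (4.11 ± 0.31), and Gm22455, in the same gene, 4, 5 and 1 against 1335, 1361 and 1307 (4.18 ± 0.35). Gm22455 shares 70.7% of its words with Rpl4, and merged with Rpl4 and Snord16a it had a log2 fold change of 1.49.

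Among named box C/D members, Snord65 went from 7, 9 and 5 counts to 1907, 2096 and 1916, with a log2 fold change of 3.65 ± 0.30. Snord50b went from 172, 196 and 77 to 18834, 21549 and 16376 (2.43 ± 0.27) and Snord69 from 55, 15 and 5 to 2998, 3691 and 2904 (2.60 ± 0.26). Snord43 had the weakest change of the 3 most-counted named members, 1.08 ± 0.21, and lost its call in 8 of 18 alternatives. Among box H/ACA members, Snora75 had 3, 1 and 0 counts against 948, 1023 and 947, a log2 fold change of 5.04 ± 0.42. The sequences of 4 members are those of the annotated gene models of GENCODE M21 on GRCm38 to which these counts were assigned. Fragments were sequenced, and all 31-base words of Gm22489 and Gm23212 also occur in Gas5 transcripts. Capitals mark TGATGA, the letters of box C, and the last CTGA after it, the letters of box D, where the sequence holds both.
Gm24494, chr3:153911610-153911690, minus strand: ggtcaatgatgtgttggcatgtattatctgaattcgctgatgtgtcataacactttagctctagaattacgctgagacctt
Gm22489, chr1:161035850-161035911, plus strand: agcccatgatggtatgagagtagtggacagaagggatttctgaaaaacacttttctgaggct
Gm23212, chr1:161036682-161036741, plus strand: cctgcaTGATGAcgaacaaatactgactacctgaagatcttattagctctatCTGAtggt
Snord65, chr11:62604515-62604586, plus strand: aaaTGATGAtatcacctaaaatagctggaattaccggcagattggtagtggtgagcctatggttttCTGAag

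Both letter groups were searched on the annotated strand, TGATGA followed anywhere by CTGA, over all tested snoRNAs and scaRNAs. The 131 members that held them had 80 higher and 1 lower, with a median length of 79 bases. The 160 members without them had 82 higher and none lower, with a median length of 131 bases. By symbol, 53 of 80 Snord, 22 of 36 Snora and 5 of 7 Scarna genes were higher. The letters occur in 17.0% of 1385 annotated mouse snoRNAs and scaRNAs and in 1.57% of 254 other tested features of 50 to 200 bases. Members with and without them were thus higher in 61.1% and 51.2% of cases. The member that was lower, Snord118, the U8 RNA that acts in ribosomal RNA cleavage, is transcribed from its own promoter. It had 43, 17 and 10 counts in the rIgG IP and 212, 226 and 164 in the p-UPF1 IP, and its log2 fold change was -1.35 ± 0.26.

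Most tested noncoding genes that host snoRNAs were higher. Of 14 such genes, 11 (78.6%, against 17.5% of all genes) were higher and none lower, with a median log2 fold change of 2.29, and at equal depth 6 of 12 (50.0%, against 10.7%) were higher. Dancr, Snhg3 and Snhg20 were not called. The median level of the 14 hosts was 34.3 CPM, and of all genes between 5 and 7 on the log2 CPM scale 60.4% were higher. Many of these noncoding hosts are known NMD substrates because their spliced RNAs hold early stop codons. Gas5, the best known, had 61, 37 and 18 counts in the rIgG IP and 7217, 7795 and 6287 in the p-UPF1 IP, a log2 fold change of 3.06 ± 0.24 and an adjusted p of 5.42e-10. However, 98.3% of its rIgG IP counts and 99.3% of its p-UPF1 IP counts were assigned to transcripts that contain a snoRNA sequence. Gas5 and the 9 small RNA genes inside it shared 31-base words, all 10 were higher, and with their counts merged the log2 fold change was 3.21 ± 0.26. For Snhg12 and Snhg4, 99.8% and 94.0% of the p-UPF1 IP counts were likewise on snoRNA-containing transcripts.

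Other hosts were counted in part or almost wholly on transcripts without a snoRNA. In Snhg15, 3.31% of the 1660 p-UPF1 IP counts were on snoRNA-containing transcripts, and the gene went from 4, 1 and 1 counts to 526, 582 and 552, a log2 fold change of 3.64 ± 0.40. Snhg14, a long host transcript of the imprinted Snrpn region, went from 51, 16 and 12 to 2390, 3003 and 2887 (2.27 ± 0.23), with 0.0604% of its p-UPF1 IP counts on such transcripts. For Snhg1 and Snhg5 that share was 79.9% and 56.5%. Snhg1 had 17, 16 and 2 counts against 691, 868 and 813 (1.61 ± 0.27). On the Snhg1 transcripts without a snoRNA alone, the rIgG IP had 25.5, 37.3 and 0 CPM and the p-UPF1 IP 20.0, 35.7 and 31.1 CPM, and these levels overlapped. Snhg5 had 12, 5 and 4 counts against 743, 796 and 765 (2.31 ± 0.28). At equal depth the log2 fold changes of these genes were 3.36, 1.57, 0.92 and 1.48, and Snhg1 then missed the threshold.

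Messenger RNAs of the NMD machinery itself were recovered in the p-UPF1 IP, and several are known to be NMD targets through a feedback loop. Of 12 NMD factor genes tested, 7 (58.3%, against 17.5% of all genes) were higher and none lower, with a median log2 fold change of 1.83. The median level of the list was 10.7 CPM, and of all genes between 3 and 5 on the log2 CPM scale 27.1% were higher. Upf1 had 3, 3 and 1 counts in the rIgG IP and 388, 499 and 479 in the p-UPF1 IP, or 10.0 ± 3.44 CPM in the rIgG IP and 84.8 ± 1.32 CPM in the p-UPF1 IP. Its log2 fold change was 3.13 ± 0.38, with an adjusted p of 9.61e-07, and it was 2.40 at equal depth and 2.09 over input. Smg1, the kinase, went from 11, 8 and 3 counts to 421, 519 and 507 (1.56 ± 0.28), and Smg5 from 7, 0 and 0 to 307, 373 and 382 (2.78 ± 0.46). The call of Smg1 was lost at equal depth (0.95). For each of these 3 genes every p-UPF1 IP library lay above every rIgG IP library on the CPM scale. Groups did not overlap, in either direction, in 51.6% of all genes tested.

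Smg6, the endonuclease, had 3, 0 and 1 counts against 107, 132 and 145 and a log2 fold change of 2.10 ± 0.57, which missed the threshold with DESeq2, with glmTreat, after thinning and without rIgG IP replicate 2. Upf2 had 1 rIgG IP count in all and 71, 91 and 87 in the p-UPF1 IP, a ratio of 11.2 (95% counting interval 2.00 to 445), and Smg9, a subunit of the SMG1 complex, had 1 against 53, 71 and 83, a ratio of 9.33 (95% counting interval 1.66 to 370). The 5 members not called were Upf3a, Upf3b, Smg8, Dhx34 and Nbas, and of these all but Nbas had at most 3 rIgG IP counts. At equal depth 3 of 8 testable factors were higher. Among 11 genes of the exon junction complex, the protein mark left at spliced junctions that triggers NMD, 2 (18.2%) were higher, close to the 17.5% of all genes. Casc3 had a log2 fold change of 2.01 ± 0.37 (adjusted p = 2.44e-04), which was 0.82 and not called at equal depth. Pym1, which takes the complex apart, had 1 rIgG IP count and 120, 158 and 142 p-UPF1 IP counts, a ratio of 18.9 (95% counting interval 3.38 to 749). Acin1 (1.02 ± 0.39, adjusted p = 0.0606) and Rnps1 (0.52 ± 0.47, adjusted p = 0.441) were not called.

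Of 25 genes for the general mRNA decay machinery, 6 were higher, a share above the 17.5% of all genes, and 1 was lower. All 25 had rIgG IP counts. Their median log2 fold change of 0.63 lay below the fitted median of all genes, 0.89. It lay above the 0.18 of all genes with those at 0 set at their bound. The median level of the list was 11.2 CPM. Of all genes between 3 and 5 on the log2 CPM scale, 27.1% were higher, with a median log2 fold change of 0.97. Ddx6, a helicase of processing bodies, went from 14, 5 and 3 counts to 326, 436 and 409 (1.26 ± 0.29, adjusted p = 0.00211), and the call was lost in 6 of 19 alternatives, thinning among them. Pabpc4, a poly(A)-binding protein gene, had a log2 fold change of 2.05 ± 0.47, and the call was lost with glmTreat, after thinning (1.39) and without rIgG IP replicate 1 (1.15). Its relative Pabpc1 was lower, with 65, 23 and 12 counts against 292, 340 and 338 and a log2 fold change of -1.16 ± 0.21, a call that was lost without rIgG IP replicate 1 (-0.81) and with glmTreat, a test against the fold threshold itself. Cnot1, the scaffold of the deadenylase, had a log2 fold change of 0.17 ± 0.27 (adjusted p = 0.673). The number higher in this list was 1 without rIgG IP replicate 1, 3 without rIgG IP replicate 3 and 0 of 19 at equal depth.

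Textbook NMD targets, which carry upstream reading frames, poison exons or early stop codons, were often higher. Of 30 such genes, 19 (63.3%, against 17.5% of all genes) were higher and 1 lower. Some of the 30 stand in the lists of hosts, NMD factors and immediate early genes too. Their median log2 fold change was 1.59 and their median level 35.1 CPM. Of all genes with a level between 5 and 7 on the log2 CPM scale, 60.4% were higher, with a median log2 fold change of 1.38. At equal depth 11 of 28 (39.3%, against 10.7% of all genes) were higher and 1 lower. Atf3, a stress-induced transcription factor, had 13, 6 and 2 counts in the rIgG IP and 875, 978 and 1011 in the p-UPF1 IP, a log2 fold change of 2.63 ± 0.28 with an adjusted p of 1.03e-07. Ddit3, which encodes the stress factor CHOP, went from 7, 1 and 1 counts to 613, 752 and 650 (3.34 ± 0.36). Gadd45b, a growth arrest gene, went from 4, 1 and 1 to 543, 472 and 536 (3.55 ± 0.44). For all of these genes the groups did not overlap, and the smallest p-UPF1 IP level was several times the largest rIgG IP level. Absence of overlap was common, at 51.6% of all genes tested and 2089 of the 2102 higher genes.

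The splicing kinase genes Clk1 and Clk4 hold retained introns and poison exons. Clk1 had 2 rIgG IP counts, all in replicate 1, and 220, 266 and 242 in the p-UPF1 IP, a ratio of 16.4 (95% counting interval 4.52 to 136). Clk4 had no rIgG IP count and 102, 170 and 137 p-UPF1 IP counts, which was at least 6.14-fold higher. Eif4a2, a translation helicase gene that hosts snoRNAs, went from 12, 8 and 0 to 1130, 1357 and 1213 (3.07 ± 0.31), and merged with the 4 small RNA genes with which it shares sequence it gave 2.68. The member that was lower, Srsf3, had 28, 6 and 0 counts against 89, 82 and 83 and a log2 fold change of -1.53 ± 0.41, with overlap between the groups. That call was lost without rIgG IP replicate 1 (-0.19), with the replicate number as a block and with glmTreat.

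Immediate early genes encode short-lived mRNAs that cells make within minutes of a stimulus, and several belong to the AP-1 transcription factors. Of 24 tested, 11 (45.8%, against 17.5% of all genes) were higher and none lower, with a median log2 fold change of 1.62. At equal depth 7 of 16 (43.8%, against 10.7%) were higher. The median level of the list was 15.1 CPM, and of all genes between 3 and 5 on the log2 CPM scale 27.1% were higher. Jun had 25.0 ± 7.85 CPM in the rIgG IP and 278 ± 18.4 CPM in the p-UPF1 IP, from 10, 7 and 2 and 1371, 1617 and 1462 counts, a log2 fold change of 3.40 ± 0.29 and an adjusted p of 1.72e-09. Ier2 went from 11, 1 and 1 counts to 1337, 1509 and 1492 (3.93 ± 0.33). Arc, a synaptic gene with introns downstream of its stop codon, had 4, 0 and 0 counts against 336, 363 and 340 (3.55 ± 0.51). Nr4a1, an orphan receptor gene, had no rIgG IP count and 95, 142 and 105 in the p-UPF1 IP, at least 5.14-fold higher. Fos was closer to the threshold, with 4, 2 and 1 counts against 138, 157 and 169, a log2 fold change of 1.58 ± 0.45 and an adjusted p of 0.0113. Its call was lost in 7 of 19 alternatives, among them the fits without rIgG IP replicate 1 or 2.

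Among nuclear protein-coding genes, Ppp1r15a was the one that the rule on fold change named. It encodes GADD34, a regulatory subunit of a protein phosphatase, and its mRNA holds upstream reading frames. It had 6, 3 and 2 counts in the rIgG IP and 1153, 1452 and 1284 in the p-UPF1 IP, a log2 fold change of 3.99 ± 0.32 with an adjusted p of 6.47e-10. Of protein-coding genes, the 6 with the smallest p among those higher were Ppp1r15a, Brd2, Jun, Ier2, Bdkrb2 and Csnk1d, the last and Brd2 and Bdkrb2 being chosen after their values were seen. Brd2, a bromodomain gene, had 19, 11 and 2 counts against 1948, 2365 and 2384 (3.25 ± 0.27). Bdkrb2, the bradykinin receptor gene, had 5, 0 and 2 against 1051, 1408 and 1152 (4.53 ± 0.39). Csnk1d, a casein kinase gene, had 14, 5 and 7 against 1305, 1592 and 1562 (2.94 ± 0.27). At equal depth all of these remained past the thresholds, with log2 fold changes of 3.30, 2.66, 3.98 and 2.15.

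**Figure D3:**
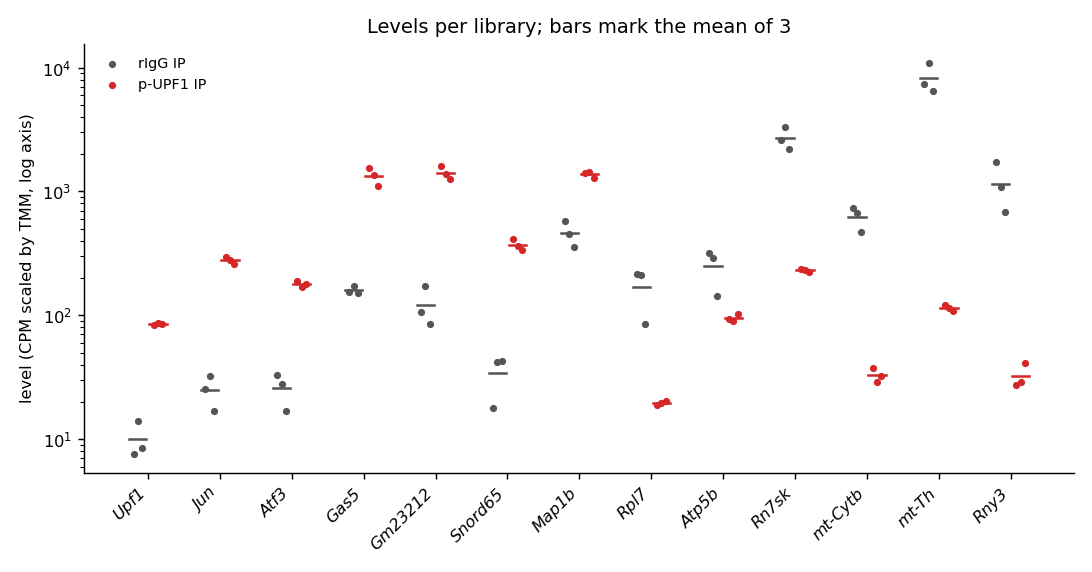
Levels of 13 genes in each library (CPM scaled by TMM, log axis), with the rIgG IP in grey and the p-UPF1 IP in red, points for the 3 libraries of a group and bars for their mean. From Upf1 to Map1b every p-UPF1 IP library lies above every rIgG IP library, and from Rpl7 to Rny3 every one lies below. Of all genes tested, 51.6% had groups that did not overlap.

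For the 11 NMD targets that the study assayed by RT-qPCR, few rIgG IP counts were at hand. Map1b, a microtubule-associated protein gene, was called higher, and without rIgG IP replicate 2 there were 2 higher genes in the list. Map1b had 226, 97 and 42 counts in the rIgG IP and 6594, 8252 and 7304 in the p-UPF1 IP, a log2 fold change of 1.54 ± 0.22 and an adjusted p of 8.63e-06, which was 0.91 at equal depth and then not called. Mapt, the gene of the microtubule protein tau, had 24, 6 and 5 against 344, 439 and 386 counts and a log2 fold change of 0.60 ± 0.27 (adjusted p = 0.108). E2f7 had 1 rIgG IP count and 45, 48 and 50 in the p-UPF1 IP, a ratio of 6.44 (95% counting interval 1.14 to 256) with an adjusted p of 0.0565. The glutamate receptor genes Grin1 and Gria2 and the seizure-related gene Sez6 had 3 rIgG IP counts each, and their ratios were 2.16 (95% counting interval 0.725 to 10.6), 1.73 (95% counting interval 0.576 to 8.50) and 1.82 (95% counting interval 0.607 to 8.94). Gabbr1 (0.41 ± 0.47), Olfm1 (0.54 ± 0.49), Sema6d (0.13 ± 0.53), Myt1 (0.37 ± 0.50) and Elavl4 (-0.42 ± 0.42) had 8 to 13 rIgG IP counts each, and none reached an adjusted p under 0.05. Their standard errors were 0.42 to 0.53. Of the 11 genes, 9.09% were thus higher, against 17.5% of all genes. The median log2 fold change of the list was 0.60, and it was -0.19 at equal depth and -0.011 over input, a comparison that shares the p-UPF1 IP libraries. The study's RT-qPCR used mouse cortex and cultured cortical neurons, and its p-UPF1 calls were made per transcript against input. The values here are sums per gene in N2A cells and do not repeat those calls.

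The study's own list of 1027 NMD targets was chosen in part on these p-UPF1 IP libraries and is therefore not independent evidence of a direction. All 1027 were among the genes tested, 426 were higher and 7 lower, and the median log2 fold change was 1.38. Among the 11006 other genes, 1676 were higher and the median was 0.81. At equal depth 133 of 792 listed genes were higher, 10 were lower, and the median was 0.74 against 0.20 for all genes. With DESeq2 272 were higher. The 3 listed genes with the highest mean level were Map1b, Dpysl3 and Snrpb. Dpysl3, a gene for neurite outgrowth, went from 75, 41 and 14 counts to 2231, 2859 and 2664 (1.46 ± 0.21), and 0.74 at equal depth. Snrpb, a core spliceosomal protein gene with a poison exon, went from 18, 23 and 4 to 2080, 2420 and 2303 (2.76 ± 0.27).

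For the next lists the shares of all genes called higher were 17.5% with all counts and 10.7% at equal depth. Of 63 chromatin regulator genes, 22 (34.9%) were higher and 1 lower with all counts, and 4 of 52 (7.69%) were higher at equal depth. The median level of that list was 20.2 CPM, and of all genes between 3 and 5 on the log2 CPM scale 27.1% were higher. Of 25 giant cytoskeletal and ubiquitin ligase genes, 8 (32.0%) were higher with all counts and 1 of 24 (4.17%) at equal depth. These giant genes had a median level of 52.5 CPM, and of all genes between 5 and 7 on the log2 CPM scale 60.4% were higher. Of 31 genes for hnRNP, PTB and ELAVL proteins, which bind pre-mRNA, 6 (19.4%) were higher and 2 lower, with a median log2 fold change of 0.28, and 10.3% were higher at equal depth. Their median level was 26.7 CPM, again between 3 and 5 on the log2 CPM scale. Ptbp1, a splicing repressor with a poison exon, had 23, 6 and 5 counts against 767, 945 and 999 (1.86 ± 0.26), and Hnrnph1 had 14, 5 and 7 against 748, 902 and 897 (2.14 ± 0.27). Hnrnpa1 (1.04 ± 0.26) lost its call in 10 of 19 alternatives. With the counts of the pair of genes that share its sequence added, its log2 fold change was 0.16 (adjusted p = 0.586).

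Against the background of 17.5%, the share called higher was 20.0% for the SR splicing factor genes (3 of 15, with 1 lower), 10.5% for the synaptic genes (4 of 38, with 1 lower) and 13.9% for the axon guidance genes (5 of 36, with none lower). The number of axon guidance genes higher was 2 without rIgG IP replicate 1 or without rIgG IP replicate 3. Of 283 Zfp zinc finger genes, 33 (11.7%) were higher and 6 lower, and 85 of the 283 had no rIgG IP count. Without rIgG IP replicate 1, 18 Zfp genes were higher. Zfp740 had 5, 5 and 0 counts against 643, 692 and 649 (3.17 ± 0.37). Zfp593 had 2 rIgG IP counts against 431, 525 and 446, a ratio of 31.6 (95% counting interval 8.73 to 261). Zfp654 was not called (0.74 ± 0.24), while its log2 fold change over input was 3.15. In synaptic genes, none was called higher at equal depth.

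RNA made inside mitochondria stood at the other end. The mitochondrial genome encodes 13 mRNAs, 22 tRNAs and 2 rRNAs, made and used inside the organelle, apart from the cytoplasm where NMD takes place. All 13 mRNAs were lower in the p-UPF1 IP, as were 19 of 20 tested tRNAs, against 5.34% of all genes, with median log2 fold changes of -3.79 and -4.28. At equal depth the counts were again 13 of 13 and 19 of 20. The mRNAs held 0.652% to 0.792% of the counts in the rIgG IP libraries and 0.0556% to 0.0772% with the p-UPF1 antibody, while the tRNAs held 1.45% to 1.86% and 0.0356% to 0.0439%. In input the tRNAs held 2.47% to 2.61%.

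Among the mRNAs, mt-Cytb, a subunit of complex III, had the smallest p. It had 286, 145 and 56 counts in the rIgG IP and 173, 168 and 182 in the p-UPF1 IP, or 626 ± 134 CPM in the rIgG IP and 32.8 ± 4.15 CPM in the p-UPF1 IP. Its log2 fold change was -4.30 ± 0.19, with an adjusted p of 1.94e-14. The complex I gene mt-Nd1 went from 154, 102 and 41 counts to 190, 264 and 223 (-3.28 ± 0.17), mt-Nd5 from 402, 241 and 84 to 575, 734 and 530 (-3.08 ± 0.20), and the cytochrome oxidase gene mt-Co1 from 727, 350 and 122 to 560, 660 and 550 (-3.79 ± 0.23). The smallest change of the 13 was that of mt-Co2 (-2.35 ± 0.22). Counts of mt-Atp6 and mt-Nd4l were split unevenly between p-UPF1 IP libraries, 0, 100 and 0 and 0, 0 and 42, against 200, 112 and 46 and 66, 32 and 12 in the rIgG IP.

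Among the tRNAs, mt-Th, the histidine tRNA, had 2874, 2317 and 770 counts in the rIgG IP and only 562, 661 and 614 in the far deeper p-UPF1 IP libraries. Its log2 fold change was -6.16 ± 0.30 (adjusted p = 1.05e-13). The second serine tRNA, mt-Ts2, went from 1392, 606 and 121 to 236, 350 and 350 (-5.44 ± 0.33) and the alanine tRNA, mt-Ta, from 848, 250 and 71 to 112, 137 and 121 (-5.88 ± 0.32). The glutamine tRNA mt-Tq had the smallest p of the class and a log2 fold change of -3.88 ± 0.18. The member not called was mt-Tw, the tryptophan tRNA (-1.28 ± 0.53, adjusted p = 0.0828). The 3 most-counted tRNAs are given here in their genomic letters, mt-Th and mt-Ts2 being adjacent on the same strand.
mt-Th, chrM:11546-11612, plus strand: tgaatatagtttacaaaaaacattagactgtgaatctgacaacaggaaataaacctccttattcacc
mt-Ts2, chrM:11613-11671, plus strand: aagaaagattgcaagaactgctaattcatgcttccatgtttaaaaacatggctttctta
mt-Ta, chrM:5018-5086, minus strand: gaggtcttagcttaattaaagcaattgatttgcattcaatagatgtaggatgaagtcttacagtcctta

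The mitochondrial rRNAs did not follow. The small subunit rRNA mt-Rnr1 had 4975, 2515 and 816 counts in the rIgG IP and 117516, 115226 and 103772 in the p-UPF1 IP, and its log2 fold change was 1.02 ± 0.29 (adjusted p = 0.0114). That call, at the edge of the threshold, was lost in 12 of 17 alternatives, without rIgG IP replicate 2, rIgG IP replicate 3 or p-UPF1 IP replicate 1 among them. The large subunit rRNA mt-Rnr2 had a log2 fold change of -0.35 ± 0.25 (adjusted p = 0.33). Over input, in a comparison that shares the p-UPF1 IP libraries, the log2 fold changes were 1.08 for mt-Rnr1 and -1.03 for mt-Rnr2, beside -5.23 for mt-Cytb and -6.34 for mt-Th.

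The next list joins spliceosomal RNAs, small RNAs made by RNA polymerase III and, outside both classes, the U3 and U7 RNAs. Of 56 members tested, 26 (46.4%, against 5.34% of all genes) were lower and 6 (10.7%, against 17.5%) higher. The median log2 fold change was -1.48, and at equal depth 21 of 34 were lower and 2 higher. Of the 26 lower members, 15 were models of the 5S ribosomal RNA, and 8 of these belong to 1 family of shared sequence, so that they are not separate measurements. The Y RNAs, which bind the Ro protein and are shown in full as short whole transcripts of the class, were both lower. Rny3 had 673, 231 and 81 counts in the rIgG IP and 126, 169 and 234 in the p-UPF1 IP (-5.20 ± 0.27, adjusted p = 3.88e-13), and Rny1 had 1090, 362 and 88 against 255, 373 and 409 (-4.80 ± 0.32). Rn7sk, the RNA that restrains the elongation factor P-TEFb, had 2710 ± 562 CPM in the rIgG IP and 230 ± 7.03 CPM in the p-UPF1 IP and a log2 fold change of -3.56 ± 0.23. Rpph1, the RNA of RNase P, had a log2 fold change of -3.01 ± 0.17, and Rn7s1, the RNA of the signal recognition particle, -2.21 ± 0.24. The U1 gene Rnu1a1 went from 4644, 2922 and 1230 counts to 5516, 7313 and 5671 (-3.38 ± 0.27).
Rny3, chr6:47781624-47781725, plus strand: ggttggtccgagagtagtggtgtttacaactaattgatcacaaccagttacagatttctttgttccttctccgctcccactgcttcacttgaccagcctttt
Rny1, chr6:47788069-47788180, minus strand: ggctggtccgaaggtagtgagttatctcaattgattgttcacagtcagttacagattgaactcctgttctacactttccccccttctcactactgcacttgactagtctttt

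The 6 members that were higher included the nucleolar U3 RNA, of which Rnu3b1 went from 276, 195 and 99 counts to 12248, 13541 and 10644 (1.49 ± 0.23). They also included Rmrp, the RNA of RNase MRP, which cleaves ribosomal RNA precursors, with 97, 51 and 16 counts against 3491, 3620 and 3206 (1.57 ± 0.22), and Rnu7, the U7 RNA that matures histone mRNAs, with 334, 195 and 82 against 11162, 14487 and 11672 (1.49 ± 0.22). At equal depth the log2 fold changes of these RNAs were 0.88, 0.94 and 0.86, under the threshold of 1. Of 10 long noncoding RNAs of the nucleus, 2 (20.0%, against 5.34% of all genes) were lower and none higher. Malat1, a nuclear speckle RNA, had 154, 90 and 41 counts in the rIgG IP and 399, 480 and 440 in the p-UPF1 IP, a log2 fold change of -2.25 ± 0.17 and an adjusted p of 1.64e-10. Kcnq1ot1, an imprinted antisense RNA, was also lower (-3.38 ± 0.80), and Tug1 was not called (0.38 ± 0.49).

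5S ribosomal RNA gave an example of counts divided between near-identical gene models. The model n-R5s193 had 16872, 3802 and 687 counts in the rIgG IP and 13, 26 and 14 in the p-UPF1 IP, a log2 fold change of -12.71 ± 0.69, while n-R5s100 had 12981, 6387 and 3312 against 63538, 70998 and 69794 and a log2 fold change of -1.25 ± 0.27. Over input, n-R5s193 had a log2 fold change of 0.15. Merged with the 9 other genes that share their sequence, Tmem38b among them, the family held 7.09% to 8.81% of the rIgG IP counts, and at least 2.36% in every p-UPF1 IP library. Its log2 fold change was -1.45 ± 0.33 (adjusted p = 0.000114).

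Genes for the cytoplasmic ribosome, whose short mRNAs are among the most heavily translated, were lower more often than higher. Of 81 tested ribosomal protein genes, 44 (54.3%, against 5.34% of all genes) were lower and 5 (6.17%, against 17.5%) higher. The median log2 fold change was -1.61, and at equal depth 45 of 76 were lower and 5 higher. Rpl7 had 84, 45 and 10 counts in the rIgG IP and 87, 114 and 115 in the p-UPF1 IP, or 169 ± 73.4 CPM in the rIgG IP and 19.6 ± 0.806 CPM in the p-UPF1 IP, and a log2 fold change of -3.26 ± 0.22 (adjusted p = 3.43e-11). Rps29 had 38, 13 and 8 against 12, 21 and 26 (-4.44 ± 0.33). Rps24, which has 61, 45 and 14 counts against 483, 737 and 592, was not called (-0.56 ± 0.20), nor was Rpl4 (0.76 ± 0.20, adjusted p = 0.00699).

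The 5 ribosomal protein genes that were higher were Rpl12, Rpl13, Rpl14, Rpl17 and Rpl35. Rpl13 and Rpl17 are uncertain as mRNA measurements. Rpl13 had 20, 26 and 3 counts against 1863, 1991 and 1736 (2.36 ± 0.29), and 95.7% of its p-UPF1 IP counts were assigned to a transcript with a retained intron. A snoRNA gene, Snord68, lies inside Rpl13, and merged with it and a pseudogene the log2 fold change was 1.51. Rpl17 had no rIgG IP count and 263, 409 and 356 in the p-UPF1 IP, at least 15.4-fold higher. Merged with Rpl17-ps3 and Rpl17-ps5, which share its sequence, it had a log2 fold change of -0.08 (adjusted p = 0.855). Without rIgG IP replicate 1, the number of ribosomal protein genes higher was 11.

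Other housekeeping mRNAs moved less uniformly. Of 71 nuclear genes for oxidative phosphorylation, 30 (42.3%, against 5.34% of all genes) were lower and none higher, with a median log2 fold change of -1.57. Only 8 were lower without rIgG IP replicate 1, and at equal depth 20 of 37 were lower. The ATP synthase gene Atp5b had 126, 62 and 17 counts against 433, 525 and 581 and a log2 fold change of -1.51 ± 0.19 (adjusted p = 2.06e-06). Atp5c1 had a log2 fold change of -1.57 ± 0.36, a call lost with glmTreat and without rIgG IP replicate 1 (-1.08, adjusted p = 0.213), and Atp5a1, at -0.85 ± 0.26, missed the fold threshold. Of 36 proteasome genes, 8 (22.2%) were lower and 1 (2.78%, against 17.5% of all genes) higher, with 3 lower without rIgG IP replicate 1. Of 16 glycolysis genes, 2 (12.5%) were lower and 2 (12.5%) higher. Of 13 tubulin genes, 3 (23.1%) were lower and none higher, and Tuba1a had 37, 23 and 13 counts against 53, 58 and 79 (-3.09 ± 0.25). Tuba1b was lower too (-2.02 ± 0.29), although its groups overlapped, and Tubb5 was not called (-0.55 ± 0.22).

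Translation factor genes went both ways. Of 64, 12 (18.8%, against 17.5% of all genes) were higher and 9 lower, with a median log2 fold change of 0.13. The elongation factor gene Eef1a1 had 517, 232 and 82 counts in the rIgG IP and 935, 1306 and 1351 in the p-UPF1 IP, a log2 fold change of -2.25 ± 0.21 and an adjusted p of 1.05e-08. Eef2 was not called (-0.26 ± 0.19), whereas Eif4h, a cofactor of the cap-binding helicase, went from 15, 6 and 2 counts to 1225, 1314 and 1284 (2.93 ± 0.28). Without rIgG IP replicate 2 the number higher was 6, without rIgG IP replicate 1 the number lower was 5, and at equal depth 2 of 47 (4.26%, against 10.7%) were higher and 10 (21.3%, against 9.71%) lower.

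Histone genes were called in both directions. Replication-dependent histone mRNAs end in a stem-loop and are degraded with the help of UPF1. Of 60 such genes tested, 7 (11.7%, against 17.5% of all genes) were higher and 10 (16.7%, against 5.34%) lower. The 4 linker histone genes Hist1h1a, Hist1h1b, Hist1h1d and Hist1h1e were among those higher. Hist1h1d had 11, 13 and 3 counts against 1054, 1049 and 862 (2.31 ± 0.31), Hist1h1a 17, 11 and 1 against 941, 997 and 755 (2.09 ± 0.31), and Hist1h1c was not called (0.86 ± 0.32). The other 3 that were higher, core histone genes, had no rIgG IP count. Among those lower, Hist1h4k had 20, 15 and 4 counts against 61, 57 and 103 (-1.97 ± 0.35). Core histone genes share long stretches of sequence, and with such genes merged 20 members of the list were in a lower family. Without rIgG IP replicate 1 the number lower was 5, and without rIgG IP replicate 2 the number higher was 4.

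**Figure D4:**
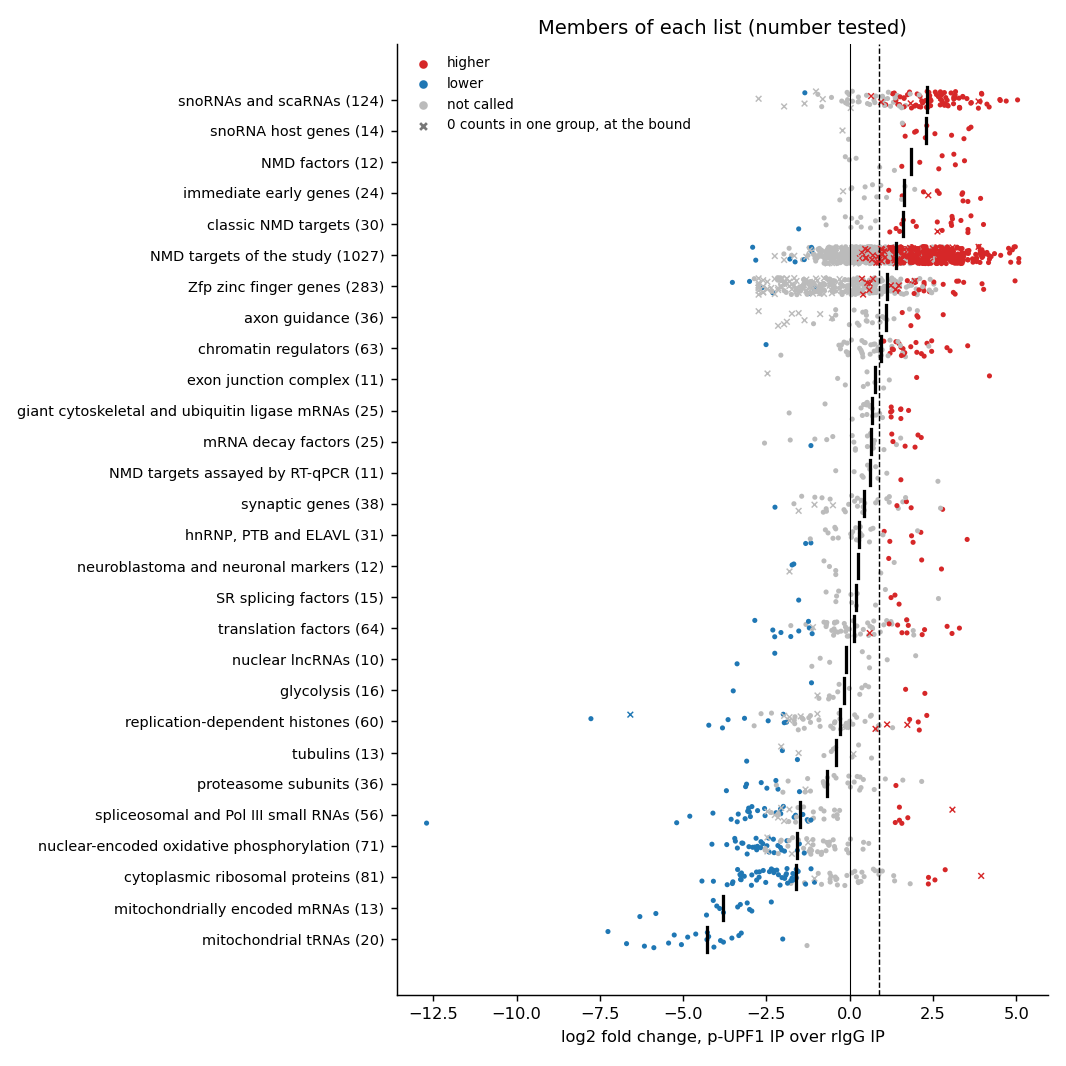
Log2 fold changes of p-UPF1 IP over rIgG IP for the tested members of each list (number tested in brackets), 1 point per gene, red for genes called higher, blue for lower, grey for neither, and crosses for genes without counts in a group, drawn at their bound. Black bars mark each list's median of fitted values and the dashed line the median of all genes, 0.89. The medians of snoRNAs, snoRNA hosts, NMD factors and immediate early genes lie to the right of it, and those of mitochondrial mRNAs and tRNAs, ribosomal protein genes and oxidative phosphorylation genes to the left of 0.

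Over all genes, equal depth moved the share called higher from 17.5% to 10.7% and the share called lower from 5.34% to 9.71%. In the lists given next the shares moved in the same directions. The share of members called higher went from 65.3% to 52.6% for snoRNAs and scaRNAs, from 78.6% to 50.0% for their hosts and from 63.3% to 39.3% for textbook NMD targets. It went from 34.9% to 7.69% for chromatin regulators. The share called lower went from 54.3% to 59.2% for ribosomal protein genes and from 42.3% to 54.1% for oxidative phosphorylation genes. These shares have different denominators, since fewer members could be tested after thinning.

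**Figure D5:**
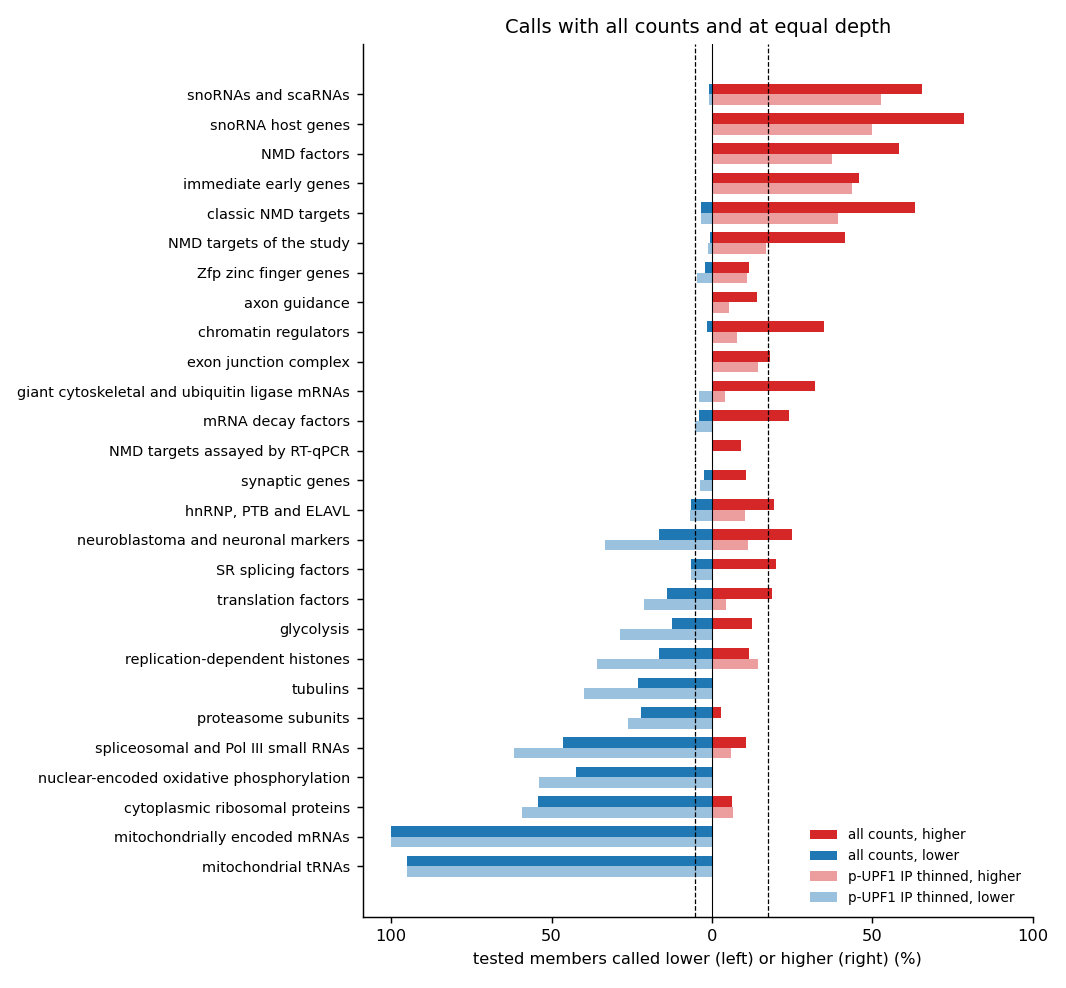
Percentage of tested members of each list that were called lower (left, blue) or higher (right, red), with all counts (dark bars) and with the p-UPF1 IP libraries thinned to the rIgG IP totals (light bars). Dashed lines mark the percentages of all genes with all counts, 5.34% lower and 17.5% higher. For the mitochondrial lists both bars have the same length, and for chromatin regulators the light bar is a fraction of the dark one.

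The genes with the smallest p among those lower were largely features whose sequence occurs elsewhere. Gm47652 (182, 75 and 49 against 8, 10 and 13 counts), the transporter gene Slc38a6 (232, 138 and 49 against 45, 55 and 55) and Gm37614 (119, 44 and 16 against 0, 1 and 0) belong to a family of 57 genes joined by shared 31-base words. The same family holds Gm29562, which was among the genes with the smallest p of those higher (3, 1 and 0 against 1364, 1894 and 2444). In all, 17 of the 57 were lower and 8 higher. Merged, the family had a log2 fold change of -0.30 ± 0.24 (adjusted p = 0.393). Gm26825 (87, 56 and 11 counts against none, at least 1139-fold lower) and Gm15459 (2 counts in all against 1403, 1875 and 1520) overlap on opposite strands and share sequence with the heat shock gene Hspa8. The ratio for Gm15459 was 108 (95% counting interval 29.9 to 893). Hspa8 itself was not called (-0.31 ± 0.20). Merged with these and 4 other genes it had a log2 fold change of 0.25 ± 0.18 (adjusted p = 0.352).

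Other pairs behaved in the same manner. Gm4204 was lower (35, 29 and 7 counts against 0, 0 and 0) and Nap1l1, a nucleosome assembly gene with the same sequence, was higher (31, 4 and 2 against 1318, 1595 and 1425), and merged they gave 0.86 ± 0.21. The ribosomal feature CT010467.1 fell from 111238, 44925 and 17337 counts to 1631, 1633 and 1877, while Gm42418, with which it shares sequence, was not called (-0.09 ± 0.34). Together the pair held at least 53.4% of the counts in every rIgG IP library and at least 24.2% in every p-UPF1 IP library, with a merged log2 fold change of -0.89 ± 0.41 (adjusted p = 0.095). Of the 643 lower genes, 210 shared at least 50% of the smaller partner's words with another gene and 49 with a higher gene. Such sharing was found for 227 of the 2102 higher genes and 1148 of all 12014 genes with a sequence. The shares were 32.7% of the lower genes, 10.8% of the higher genes and 9.56% of all. After merging, 11288 units were tested, 1972 (17.5%) were higher and 568 (5.03%) lower. Pseudogenes, which copy the sequence of other genes, were lower in 70 of 340 cases (20.6%, against 5.34% of all genes) and higher in 26 (7.65%, against 17.5%).

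Gm28438 and Gm28439 are nuclear copies of mitochondrial sequence on chromosome 1 and share words with mt-Nd3 and mt-Nd4. Gm28438 had 113, 61 and 17 counts against 41, 53 and 49 (-4.86 ± 0.21), and Gm28439 had 76, 50 and 12 against none, at least 1021-fold lower. Merged with mt-Nd3 and mt-Nd4 they gave log2 fold changes of -4.79 and -3.93. For some strong lower calls no such partner was found, in a search of tested genes that left out words held by more than 100 genes. Letm2, a mitochondrial inner membrane gene, had 59, 29 and 13 counts against 4, 9 and 6 (-6.81 ± 0.31), and its best match among the tested genes held 0.144% of its 31-base words. Yipf1, a Golgi membrane gene, fell from 6730, 1832 and 398 counts to 7, 7 and 6, a log2 fold change of -12.88 ± 0.61, and all of its rIgG IP counts were assigned to a single transcript of the type processed transcript. Its best match among the tested genes held 0.459% of its words, and which RNA those fragments came from was not tested.

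Markers of the line were detected. Of 16 sympathetic neuroblastoma and neuronal markers, 12 could be tested, and none of the noradrenergic transcription factors among them was lower. Gata2 (6, 5 and 1 counts against 342, 423 and 429, 2.16 ± 0.34) and Phox2a (3 rIgG IP counts in all against 126, 169 and 159) were higher, while the secretory granule gene Chgb (23, 11 and 7 against 79, 124 and 81, -1.68 ± 0.30) and Stmn2 (-1.73 ± 0.32) were lower and Tubb3 was not called (-0.77 ± 0.28). Of 15 markers of astrocytes, oligodendrocytes, myeloid, epithelial, fibroblast and erythroid cells, 3 had enough counts to be tested. Mbp had 2 rIgG IP counts against 59, 68 and 44, and the globin gene Hbb-bs 7, 0 and 0 against 1, 2 and 0, all of its rIgG IP counts being in replicate 1. Hbb-bs was called lower on these few counts, and without rIgG IP replicate 1 it could not be tested.

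Protein-coding genes of the nucleus differed in structure by the direction of the call, which is given as a description. The 1841 higher genes had a median length of 3692 bases in their most-counted transcript, a GC content of 53.2% and 10 exons. The 433 lower genes had medians of 1398 bases, 48.7% and 6 exons, and the 8419 uncalled genes 2843 bases, 50.1% and 9 exons. Longer mRNAs give more fragments, so the values were also taken within a range of level. Between 3 and 5 on the log2 CPM scale the medians of higher, uncalled and lower genes were 3553, 3448 and 1610 bases and 53.4%, 49.8% and 48.6% GC, with 10, 11 and 6 exons. Between 5 and 7 they were 4213, 4216 and 1298.5 bases and 52.5%, 49.6% and 49.9% GC, with 10, 14 and 6.5 exons. Within a range of level, higher and uncalled genes thus had nearly the same median length and the lower genes were shorter, and the higher genes had fewer exons than the uncalled genes, unlike over all levels. In the fit with nuclear protein-coding genes alone, 1632 of 10691 were higher and 523 lower.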

How the data were processed

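N2A cells were profiled by RIP-seq in 9 libraries, of which the 3 p-UPF1 IP and 3 rIgG IP libraries were compared. The authors trimmed reads, mapped them to GRCm38 with STAR 2.7.0f and quantified transcripts with Salmon 0.13.1, versions as given in the submitters' processing notes. The deposited values are unscaled estimated counts per transcript, already whole numbers, and they were summed per gene symbol. Genes with a summed count of at least 10 were tested in edgeR 4.0.16 (R 4.3.3) with TMM factors and the quasi-likelihood test, adjusted by the Benjamini-Hochberg method. The biological coefficient of variation was 11.5%. A standard error is the size of the log2 fold change divided by the square root of F. Of the transcripts, 139921 of 140658 matched GENCODE M21, a release before the one the study used, from which types, positions and sequences came.

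Genes were merged where at least 50% of the smaller one's 31-base words occurred in the other. Only tested genes were compared, and words held by more than 100 of them were not counted as shared. Ratios of genes with few counts use counts pooled over a group, with exact Clopper-Pearson intervals (95%). Scripts were tested on simulated data. The members and lists were chosen with earlier results of these data known. Genes named were the 10 with the smallest p in each direction, the 8 with the largest log2 fold change among higher genes with at least 10 rIgG IP counts, the 5 protein-coding genes with the smallest p among those lower, the 3 members of each list with the highest mean CPM, Upf1 and the 11 RT-qPCR targets. Lists of proteasome subunits, glycolysis, axon guidance, giant cytoskeletal genes, SR splicing factors, synaptic genes and chromatin regulators are given by counts alone, and any other gene was chosen after its values were seen. Alternatives were DESeq2 1.42.0, other size factors (RLE, none), filterByExpr, a summed count of at least 50, no filter, thinning, all 9 libraries, the replicate number as a block, any fold change, glmTreat, removal of the 10 most-counted genes, and leaving out each library. Merging and a fit of nuclear protein-coding genes alone were added after seeing the data. The paper gives Salmon's parameters as the defaults and names no strand setting, so overlapping and antisense genes are uncertain. A few genes and sequences that these choices include are not reported here.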

Additional observations from a re-analysis of the deposited data

How the results depend on the processing

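The number of genes higher, 2102, was 1162 with DESeq2, 914 with glmTreat, 589 after thinning, 1362 with the replicate number as a block and 1299 to 2033 when a library was left out, the lowest without rIgG IP replicate 1 (1396 without replicate 2). The number lower, 643, was 389 with glmTreat, 426 with the block and 307 to 674 when a library was left out. Between libraries of equal replicate number, deviations correlated at -0.013, -0.014 and -0.031 over 5659 genes, and no library correlated best with its own number. Only 2306 of the genes tested had 10 or more rIgG IP counts. Counting noise could therefore hide a pairing, and these values cannot exclude one. Of 1168 list members tested, 426 were called, against 263 with glmTreat, 268 after thinning and 268 with nuclear protein-coding genes alone. The cause of these shifts was not tested.

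Of 117 called genes examined singly, 82 kept their call in every alternative run for them, 31 lost it in at least 1 and 4 changed sign. Merging gave -0.30 for Gm29562, 0.25 for Gm26825 and Hspa8, 0.86 for Gm4204 and -0.077 for Rpl17. Thinning gave -0.13 for Rnps1, -0.48 for Gabbr1, -0.19 for Myt1, -0.40 for Olfm1, -0.30 for Cnot1 and -0.85 for Sema6d. Cnot1 had -0.10 with DESeq2, -0.11 with RLE factors, -0.18 with filterByExpr and -0.16 at a summed count of 50. Sema6d had -0.14, -0.14, -0.22 and -0.19 in the same order. With a library left out, the range was -0.042 to 0.61 for Cnot1, -0.034 to 0.82 for Tug1, -0.22 to 0.41 for Sema6d and -0.37 to 0.052 for Gm42418. The rIgG IP floor of 4.14 CPM limits every comparison of weakly recovered genes.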
